A study of Bos taurus with 16 samples.

Results

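The circadian clock and PAR bZIP transcription factors were examined in the liver of beef cattle. The set was given as 10 genes, and a gene was measured where a probe set of the array carried its symbol alone. By this rule 8 of the 10 genes were measured, namely CLOCK, PER2, PER3, CRY1, CRY2, NR1D2, HLF and DBP, out of 18010 named genes on the array. The probe set of NR1D1 also carried the symbol of its neighbour THRA, and no probe set carried the symbol or gene identifier of TEF, so neither was analysed here. PER2 had 2 probe sets, and each gene was represented by the probe set with the highest mean over all arrays.

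Angus steers (castrated male cattle) that weighed 209 ± 29.4 kg at the start were allotted at random to one of 2 phases of growth. Growing steers were followed to a final weight of 301 kg and finishing steers to 576 kg, and all were individually fed a diet based on cotton seed hulls for a steady gain of 1.5 kg per day. Liver RNA of 8 steers per phase was hybridised to 16 arrays, 1 per steer, and each value is a log2 signal of a probe set, so that a difference of 1 is a doubling. Finishing steers were heavier, older and longer on feed, and these effects cannot be told apart. The hour of sampling and the time since the last meal are not given in the sources used here, and their part in any clock gene difference was not tested.

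In mammals the clock is a feedback loop of transcription factors present in nearly every cell, the hepatocyte included. CLOCK, or its relative NPAS2, pairs with ARNTL and activates the PER and CRY genes, whose proteins return to the nucleus and repress that activation. NR1D1 and NR1D2 repress ARNTL, and the ROR receptors oppose them at the same sites. DBP, HLF and TEF form the PAR bZIP family, which passes the rhythm on to liver genes of metabolism and detoxification, and NFIL3 competes with them for the same DNA element.

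HLF was lower in finishing steers, and the other 7 measured members did not pass the test. With limma and Benjamini-Hochberg adjustment over all 26773 probe sets at a threshold of 0.05, 1 of the 8 members was lower and 0 were higher. Over the whole array 4.3% of probe sets were lower, 2.34% were higher and 6.64% passed in either direction. With 8 genes, a single call does not set the members apart from the rest of the array. At an unadjusted p under 0.05 there were 2 lower members, HLF and DBP, and 0 higher, where 10.8% of all probe sets were lower, 10.8% higher and 21.6% passed in either direction. The exact permutation test, unadjusted, called HLF alone. The median difference of the 8 members was -0.12 against 0.025 over all probe sets. Of the 8 differences 7 lay below 0, against 8448 of 18010 for all named genes.

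HLF, the hepatic leukemia factor, is the PAR bZIP member named for a human leukemia fusion. Its log2 signal ran from 8.78 to 9.87 with a median of 9.60 in growing steers, and from 7.70 to 9.23 with a median of 8.82 in finishing steers. Of the 8 growing steers 7 lay above every finishing steer, and the exception was growing replicate 4 (8.78). Among finishing steers replicate 5 was the lowest of all (7.70), and the remaining 7 lay between 8.62 and 9.23. The mean log2 signal of HLF fell by 0.74 ± 0.19 (SE, n = 8 per phase) with a 95% confidence interval from -1.14 to -0.34, and limma gave an adjusted p of 0.0273. Growing steers thus had 1.66-fold the finishing signal, and the exact permutation test of the same difference gave p = 0.00202 (2-sided, unadjusted, 12870 arrangements).

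The HLF difference passed close to the threshold. Leaving out 1 array at a time gave differences from -0.84 to -0.58, and HLF passed in 12 of 16 such fits. It did not pass without growing replicate 2, 6 or 7 or without finishing replicate 6, with adjusted p = 0.0506, 0.0504, 0.0569 and 0.0520 by limma. Without finishing replicates 5 and 6 together, the arrays that correlated least with their own phase (medians 0.978 and 0.981), it came to -0.53 (limma adjusted p = 0.0545). In a fit added after the values were seen, the arrays with the lowest HLF signal of each phase, growing replicate 4 and finishing replicate 5, were left out. The HLF difference was then -0.69 with an adjusted p of 0.00391 by limma. Leaving out an extreme value of each phase narrows the spread within phases, so the smaller p adds no support.

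**Figure D1:**
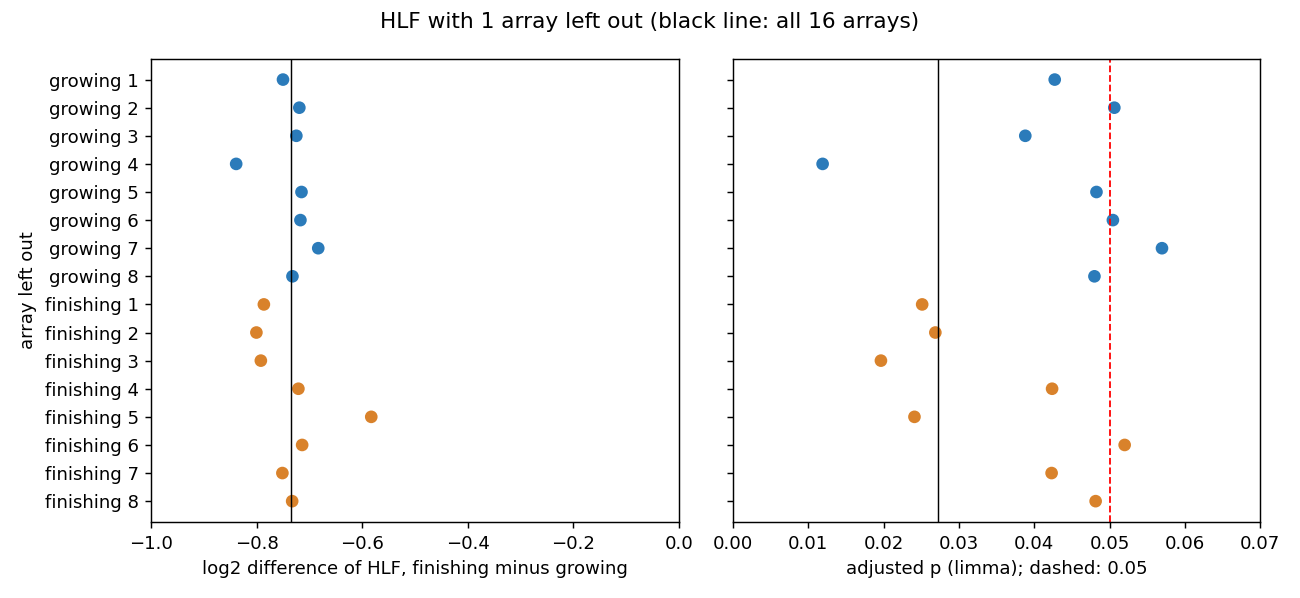
The HLF difference (left, log2 signal, finishing minus growing) and its limma adjusted p (right) with each of the 16 arrays left out in turn; blue marks growing and orange finishing arrays, and the black line is the fit on all 16. Every difference lies between -0.84 and -0.58, and 4 of the 16 points on the right lie beyond the dashed threshold of 0.05.

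Several markers of other liver cell types, though none of cholangiocytes, passed limma as lower in finishing steers beside HLF. The counts that follow are at the adjusted threshold, where 4.3% of all probe sets were lower and 2.34% higher. Hepatocyte markers had a mean log2 signal over the 8 listed genes of 12.90 to 12.99 and 12.85 to 12.93 in finishing steers, and 1 of 8 (AHSG, the plasma protein fetuin A) fell. Stellate cell and fibroblast markers had 6 of 6 lower, with mean signals of 8.33 to 8.54 in growing and 7.59 to 7.86 in finishing steers. The stellate count was 5 in 9 of 16 fits that left out 1 array, with a replicate block and without finishing replicates 5 and 6. Kupffer cell and macrophage markers had 4 of 8 lower, with mean signals of 9.44 to 10.03 and 8.55 to 9.93. That count depended on single arrays: it was 2 in 12 of 16 fits that left out 1 array, 3 without growing replicate 5, finishing replicate 1 or finishing replicate 5, and 6 without finishing replicate 4. C1QA, a complement subunit, passed in 2 and CD68, a lysosomal protein, in 3 of the 16 fits, and neither passed with array median centring. T and NK lymphocyte markers had 3 of 7 lower (5 without finishing replicate 3), with 5.97 to 6.71 and 5.43 to 6.08. Endothelial markers had 2 of 5 lower (8.55 to 8.79 and 8.23 to 8.63), B cell markers 1 of 4 (5.90 to 6.29 and 5.61 to 6.09) and cholangiocyte markers 0 of 4 by limma, also at an unadjusted p under 0.05 (5.06 to 5.68 and 4.83 to 5.53). None of these lists had a gene that was higher at the adjusted threshold. Differences above 0 were found for 3 hepatocyte, 2 Kupffer cell and macrophage, 1 endothelial and 1 B cell marker. The largest was that of CD163, a macrophage receptor named after its values were seen (0.48 ± 0.23, SE, adjusted p = 0.244 by limma). The part of these cell types in the HLF difference was not tested, and in whole liver fewer cells of a type and less RNA per cell cannot be told apart.

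DBP, the albumin D-box binding protein and a PAR bZIP factor with a strong daily rhythm in rodent liver, differed in the same direction as HLF without passing the test. Its log2 signal ran from 7.99 to 9.60 with a median of 8.62 in growing steers, and from 7.92 to 8.91 with a median of 8.25 in finishing steers. The groups overlapped broadly, with 7 of 8 finishing steers inside the growing range and 3 growing steers above every finishing steer. The difference was -0.39 ± 0.19 (SE, n = 8 per phase; adjusted p = 0.23 by limma), and its 95% confidence interval reached from -0.79 to -0.0019. By the exact permutation test p was 0.069 (unadjusted). Whether HLF differed more than DBP was asked within steers, a comparison chosen after the values were seen. HLF minus DBP averaged 0.81 ± 0.38 in growing steers (SD, n = 8) and 0.46 ± 0.40 in finishing steers, and this change of -0.34 was not past the threshold (exact permutation p = 0.103, 2-sided).

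**Figure D2:**
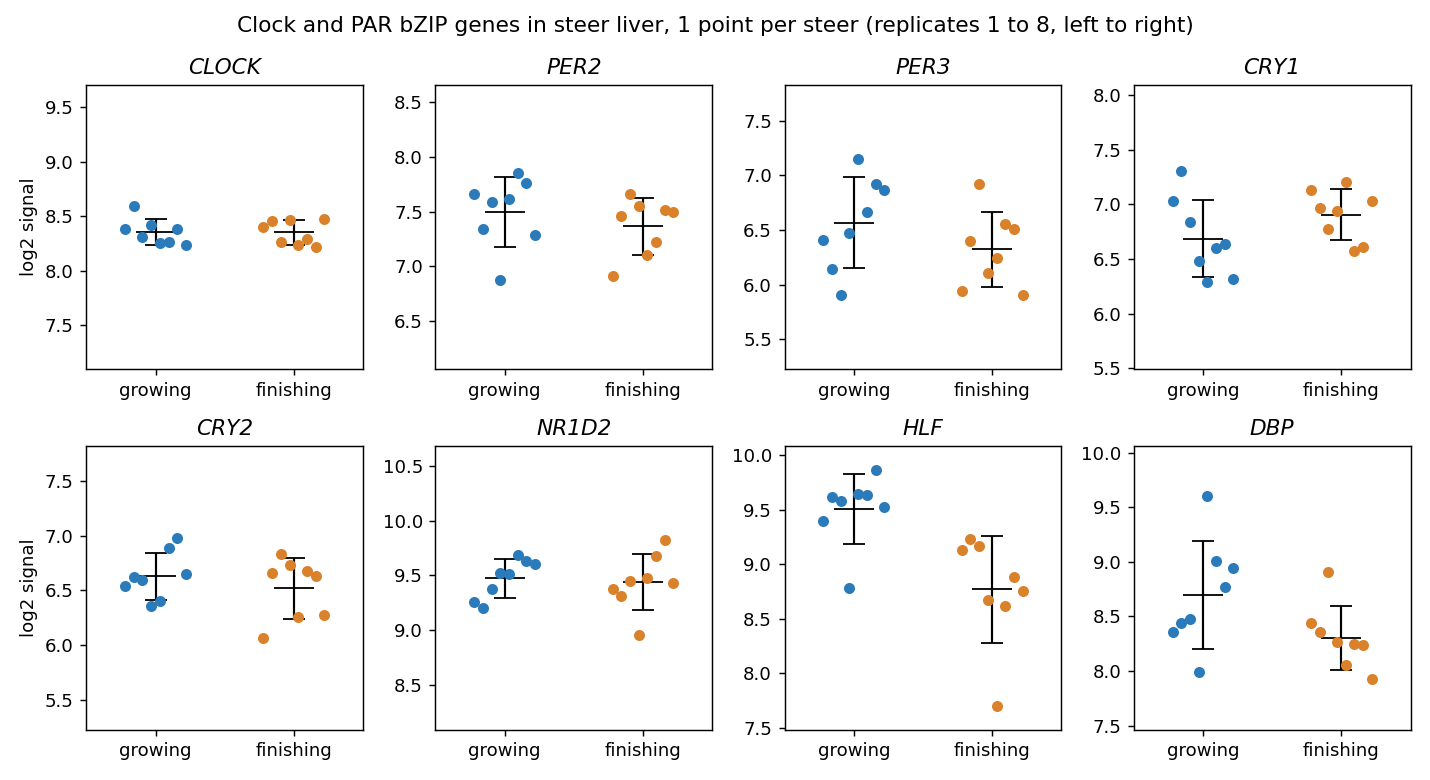
The log2 signal of the 8 measured genes in each steer (points, replicates 1 to 8 from left to right), with the mean and SD of each phase in black; every panel spans 2.6 log2 units, centred on its own gene. The HLF points of 7 growing steers lie above all finishing points, and that of growing replicate 4 lies among them. Of the 8 finishing points 4 lie inside the growing range for HLF, against 5 or more for each of the other 7 genes.

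CLOCK, the activator of the loop, had the closest phase means of the set. Growing steers ran from 8.24 to 8.59 with a median of 8.35, and finishing steers from 8.21 to 8.48 with the same rounded median. The difference was -0.0031 ± 0.065 (SE, n = 8 per phase; adjusted p = 0.987 by limma), and the 95% confidence interval of -0.14 to 0.13 spans less than 0.14 on either side of 0. It was also the least variable member between steers of a phase, with a within-phase SD of 0.11, and 9.32% of all probe sets had a smaller SD.

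PER2 and PER3, repressors of the PER family, differed little beside the spread between steers. PER2 ran from 6.87 to 7.85 (median 7.60) in growing and from 6.91 to 7.66 (median 7.48) in finishing steers, so that all 8 finishing steers lay inside the growing range. Its difference was -0.13 ± 0.14 (SE; adjusted p = 0.628 by limma, 95% confidence interval -0.42 to 0.15), and its other probe set gave -0.13 as well. PER3 ran from 5.91 to 7.15 (median 6.57) in growing and from 5.91 to 6.92 (median 6.32) in finishing steers. Although 7 of 8 finishing steers lay below the growing median, the difference of -0.24 ± 0.18 (SE; adjusted p = 0.456 by limma) had an interval from -0.61 to 0.13.

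The cryptochromes, the partners of the PER proteins in repression, pointed in opposite directions and neither passed. CRY1 was the one member above 0, from 6.29 to 7.30 (median 6.62) in growing and from 6.57 to 7.21 (median 6.95) in finishing steers. Here 3 growing steers lay below every finishing steer and 1 above, and the difference was 0.22 ± 0.14 (SE; adjusted p = 0.393 by limma, 95% confidence interval -0.075 to 0.51). CRY2 ran from 6.35 to 6.98 (median 6.61) in growing and from 6.07 to 6.84 (median 6.65) in finishing steers. Its mean difference of -0.11 ± 0.12 (SE; adjusted p = 0.642 by limma, interval -0.36 to 0.14) came with a finishing median above the growing one, since 3 finishing steers lay below all growing steers and the others did not.

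NR1D2, the nuclear receptor REV-ERB beta that represses ARNTL, lay at like levels in both phases. Values ran from 9.20 to 9.68 (median 9.52) in growing and from 8.95 to 9.82 (median 9.44) in finishing steers, and 6 of 8 finishing steers were inside the growing range. The difference was -0.037 ± 0.11 (SE; adjusted p = 0.881 by limma), with an interval from -0.26 to 0.19.

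The other core clock genes were taken whatever their p, and of 10 measured out of 12 listed 0 passed limma at the adjusted threshold. At an unadjusted p under 0.05 there were 3, of which ARNTL and NFIL3 were higher and NPAS2 lower in finishing steers, and the same 3 passed the exact permutation test unadjusted. Over the whole array 21.6% of probe sets passed limma unadjusted, so 3 of 10 genes do not set this list apart. Their median difference was 0.012.

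ARNTL (also called BMAL1), the partner of CLOCK, ran from 6.35 to 7.66 (median 7.09) in growing and from 6.96 to 8.07 (median 7.61) in finishing steers. On each side 3 steers lay outside the range of the other phase, and the difference was 0.50 ± 0.17 (SE, n = 8 per phase; adjusted p = 0.0919 by limma; exact permutation p = 0.0168, unadjusted). The ARNTL difference passed limma without finishing replicate 6 (adjusted p = 0.0458) and in no other fit that left out 1 array. NFIL3, which competes with the PAR bZIP factors for the D-box, ran from 5.77 to 7.65 (median 6.74) in growing and from 6.81 to 8.17 (median 7.39) in finishing steers. All 8 finishing steers lay above the growing median, yet growing steers were widely spread, and the difference was 0.57 ± 0.24 (SE; adjusted p = 0.168 by limma). NPAS2, the relative of CLOCK, ran from 5.23 to 6.05 (median 5.58) in growing and from 4.95 to 5.55 (median 5.30) in finishing steers, all 8 of which lay below the growing median. Its difference was -0.34 ± 0.12 (SE; limma adjusted p = 0.114).

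The remaining core genes differed by less than 0.2 in either direction. PER1 had a difference of 0.044, BHLHE40 and BHLHE41, repressors of CLOCK targets, 0.12 and -0.093, RORA, an activator of ARNTL, 0.082, and TIMELESS -0.16. ARNTL2 and RORB, relatives of ARNTL and RORA, had means of 2.75 and 3.65 in growing steers and differences of -0.054 and -0.021, and no detection call was at hand to tell whether they lay above background. All of these had adjusted p between 0.425 and 0.898 by limma.

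**Figure D3:**
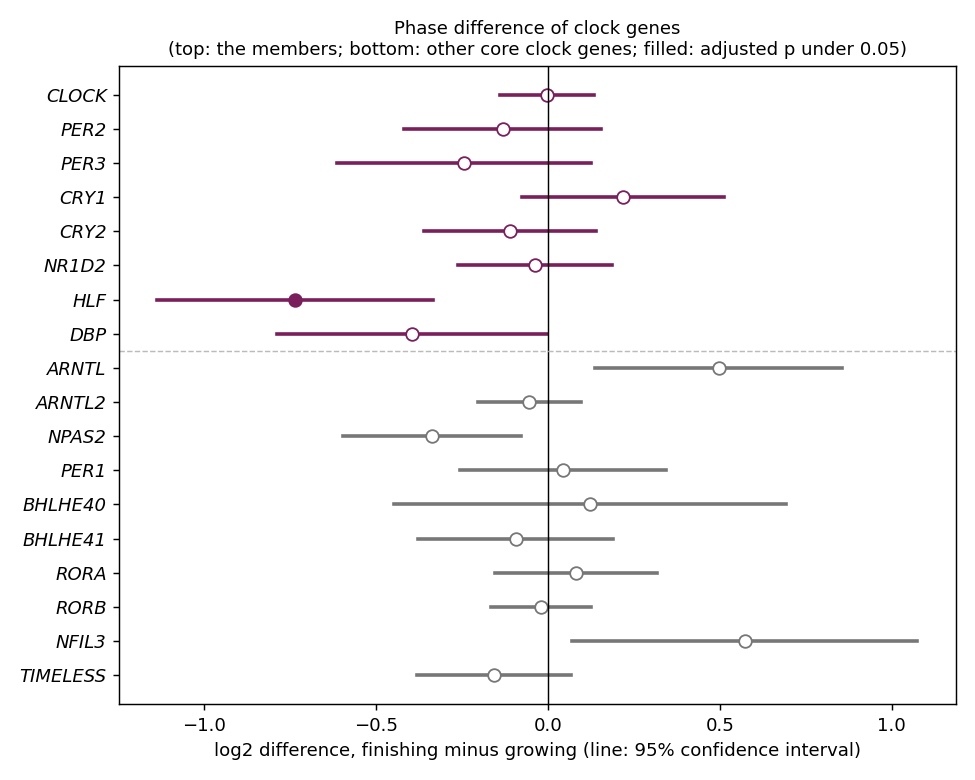
Log2 difference of each clock gene, finishing minus growing (circles), with its 95% confidence interval from limma (lines, not adjusted for the number of genes), for the 8 members above the dashed line and 10 other core clock genes below it. Only HLF has a filled circle, at -0.74, and the intervals of ARNTL, NFIL3, NPAS2 and DBP also leave out 0 without an adjusted p under 0.05.

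Steers of the same phase differed from one another more in most of these genes than in the typical probe set. The median within-phase SD of the 8 members was 0.29, against 0.192 over all probe sets. HLF (0.41), DBP (0.41) and PER3 (0.38) had larger SDs than 91.2%, 90.7% and 89.2% of probe sets, and CRY1, PER2, CRY2 and NR1D2 larger than 81.1%, 79.7%, 71.3% and 62.9%. The highest growing steer had 3.05-fold the DBP signal of the lowest, and for HLF the range among finishing steers was 2.88-fold.

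Taken over both phases, some of this spread between steers was shared between clock genes, though no pair passed within a single phase after adjustment. The pairs were chosen with earlier results of these data known, so the p-values below are no independent support. Deviations from the phase mean were correlated for 7 of 12 listed pairs, those whose genes were both measured, over 16 steers with 2-sided permutation within phase and adjustment over the 7 pairs. DBP and PER3, both driven by CLOCK and ARNTL in mouse liver, varied together (r = 0.69, permutation p = 0.0051, adjusted p = 0.0254; rho = 0.67, permutation p = 0.0102, adjusted p = 0.0239). Within growing steers r was 0.72 (exact permutation p = 0.0446, n = 8) and within finishing steers 0.67 (exact permutation p = 0.0631, n = 8). Without growing replicates 4 and 5, the steers farthest from the DBP median, r was 0.70 (permutation p = 0.00962), which did not pass after adjustment over the 7 pairs (adjusted p = 0.0673). Among 9893 other named genes above the median signal, 0.465% were as strongly correlated with DBP. The pair passed in 14 of 16 repeats with 1 array left out, and not without growing replicate 2 or finishing replicate 3.

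In the DBP and PER3 pair the high values fell on the same steers. Growing replicates 5, 6, 7 and 8 held the highest DBP signals of their phase (9.60, 9.01, 8.77 and 8.95) and also the highest PER3 signals (7.15, 6.67, 6.92 and 6.87). Finishing replicate 3 was highest in its phase for both (8.91 and 6.92), and finishing replicate 8 was lowest for both (7.92 and 5.91). The replicate numbers carry no stated order or batch.

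CLOCK and ARNTL, partners in the activating dimer, also varied together (r = 0.68, permutation p = 0.00726, adjusted p = 0.0254; rho = 0.67, permutation p = 0.00735, adjusted p = 0.0239). The value was 0.68 within growing steers (exact permutation p = 0.0732, n = 8) and 0.67 within finishing steers (exact permutation p = 0.0704, n = 8), and 0.121% of the other genes were as strongly correlated with CLOCK. Without growing replicate 2 and finishing replicate 8, the steers farthest from the CLOCK median, r fell to 0.52 (permutation p = 0.0722), so the call rests in part on those steers. It also did not pass without growing replicate 2, finishing replicate 3 or finishing replicate 4 alone, and passed in the other 13 of 16 repeats.

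DBP and HLF, the 2 measured PAR bZIP factors, had r = 0.55 (permutation p = 0.0203, adjusted p = 0.0474; rho = 0.68, permutation p = 0.00341, adjusted p = 0.0239). That call was the weakest of the pairs that passed: r was 0.63 within growing (exact permutation p = 0.108, n = 8) and 0.58 within finishing steers (exact permutation p = 0.155, n = 8). Without growing replicates 4 and 5 the call was lost while r was little changed (0.50, permutation p = 0.11), and 3.19% of other genes were as strongly correlated with DBP. It passed in 3 of 16 repeats with 1 array left out, those without growing replicate 5 or 7 or finishing replicate 8. DBP and NFIL3 ran in opposite directions (r = -0.56, permutation p = 0.0359, adjusted p = 0.0628; rho = -0.60, permutation p = 0.0191, adjusted p = 0.0334), past the threshold by rank and not by Pearson's r. It was -0.54 within growing steers (exact permutation p = 0.155, n = 8), -0.61 within finishing steers (exact permutation p = 0.106, n = 8) and -0.51 without growing replicates 4 and 5 (permutation p = 0.0734). Without growing replicate 4 and finishing replicate 5, r was 0.44 for DBP and HLF (permutation p = 0.0905). There it was -0.38 for DBP and NFIL3 (permutation p = 0.225). The DBP and PER3 pair (0.76) and the CLOCK and ARNTL pair (0.72) still passed there after adjustment over the 7 pairs.

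The other 3 pairs did not pass. DBP and ARNTL had r = -0.35 (permutation p = 0.208, adjusted p = 0.291; rho = -0.44, permutation p = 0.107), with -0.35 in growing and -0.37 in finishing steers and -0.56 without growing replicates 4 and 5. PER2 and PER3 had r = 0.30 (permutation p = 0.293, adjusted p = 0.339; rho = 0.34, permutation p = 0.221), with 0.19 in growing and 0.45 in finishing steers and 0.20 without growing replicate 4 and finishing replicate 1. CRY1 and CRY2 had r = -0.25 (permutation p = 0.339, adjusted p = 0.339; rho = -0.30, permutation p = 0.262), with 0.11 in growing and -0.72 in finishing steers and -0.46 without growing replicates 2 and 5.

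**Figure D4:**
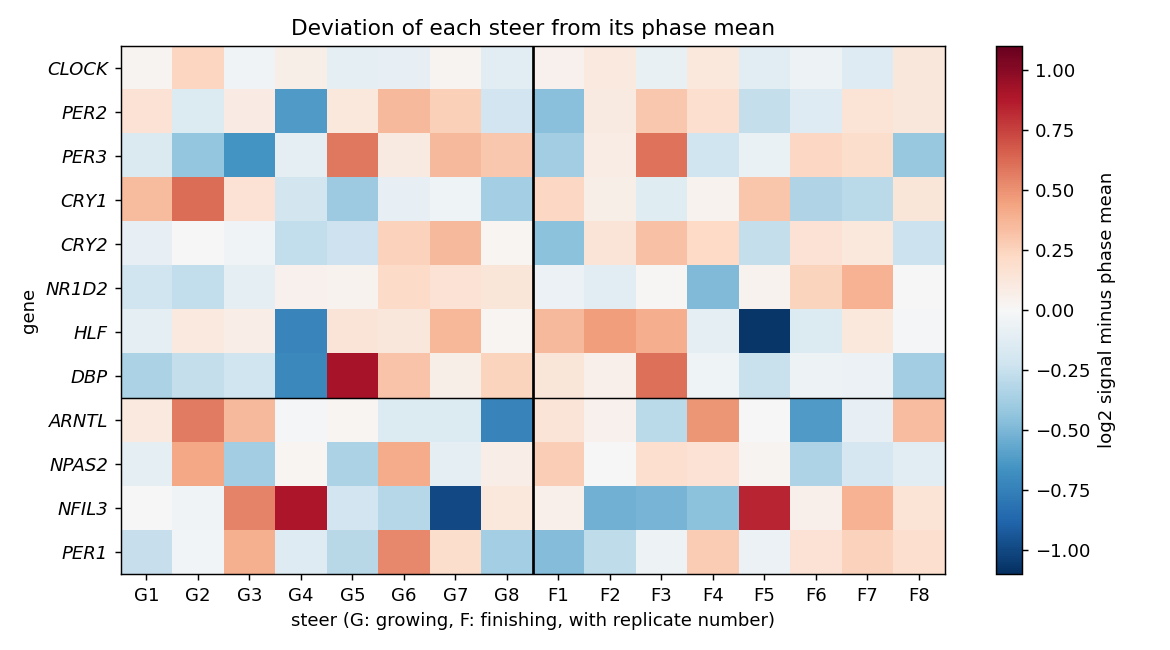
The log2 signal of each steer minus its phase mean (colour, red above and blue below) for the 8 members and for ARNTL, NPAS2, NFIL3 and PER1, in growing (G) and finishing (F) steers with their replicate numbers. Growing replicates 5 to 8 are red for DBP and PER3, and the darkest blue cell is HLF in finishing replicate 5.

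**Figure D5:**
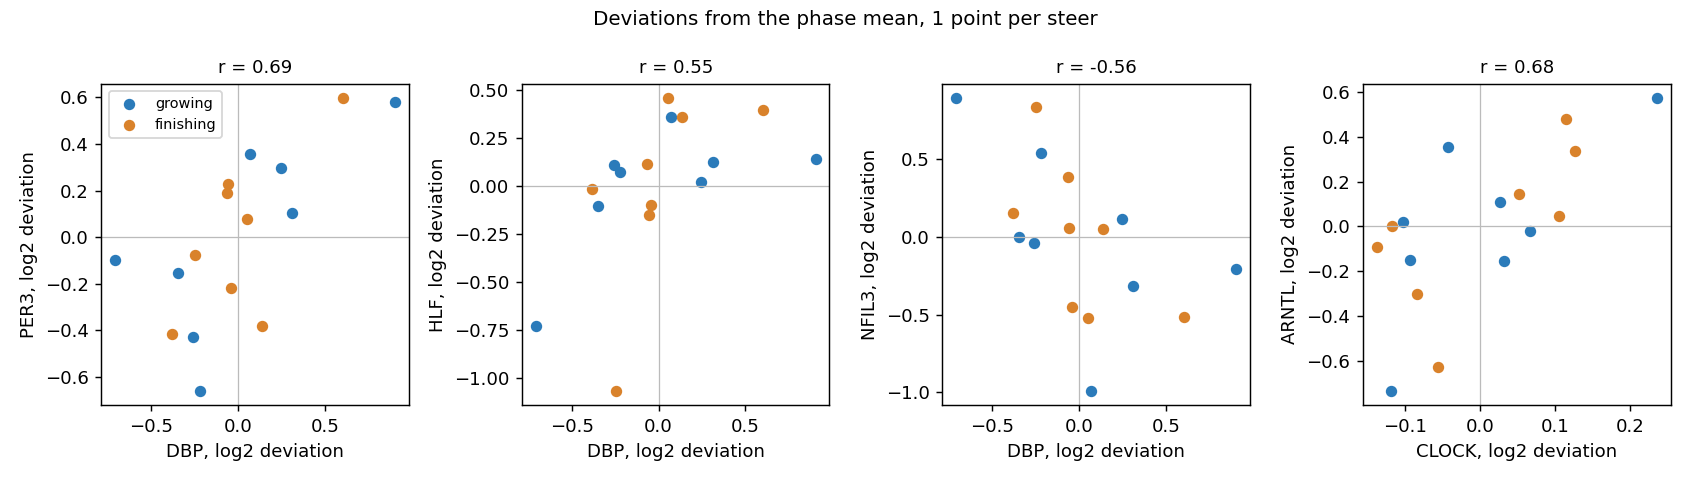
Deviations from the phase mean (log2 signal) for 4 pairs of clock genes, 1 point per steer, blue for growing and orange for finishing. Pearson's r over the 16 steers is 0.69 for DBP and PER3, 0.55 for DBP and HLF, -0.56 for DBP and NFIL3, and 0.68 for CLOCK and ARNTL.

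The genes whose deviations were most like those of HLF, the one member past the threshold, were RHPN2, a rhophilin that binds the GTPase RhoA (r = 0.94), HNF4A, the nuclear receptor that maintains hepatocyte identity (r = 0.91), and PPFIBP2, a liprin scaffold protein (r = 0.90). They were the top 3 of 9893 named genes over 16 steers, ranked by this likeness, and the values are a description without a test. Within finishing steers r was 0.98, 0.97 and 0.99, and within growing steers 0.85, 0.79 and 0.64, in the order named. Without growing replicate 4 and finishing replicate 5, the steers lowest in HLF, r was 0.72, 0.62 and 0.65, so part of the likeness rests on those arrays. Between phases the 3 genes differed by -0.23, -0.23 and -0.22, with adjusted p = 0.324, 0.431 and 0.375 by limma.

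Of 5 genes lowered in mice that lack the PAR bZIP factors, 0 passed limma in either direction, with 2 lower and 0 higher at an unadjusted p under 0.05. Over all probe sets 10.8% were lower at that unadjusted threshold. Without growing replicate 4, 1 of the 5 passed in each direction. POR, the reductase that supplies electrons to cytochromes P450, ran from 10.05 to 10.56 (median 10.47) in growing and from 9.38 to 10.36 (median 10.11) in finishing steers. Its difference of -0.37 ± 0.12 (SE; adjusted p = 0.0807 by limma) came with 6 growing steers above every finishing steer. NR1I3, the xenobiotic receptor CAR, ran from 8.65 to 9.53 (median 9.34) and from 7.82 to 9.26 (median 8.66), and differed by -0.53 ± 0.19 (SE, limma adjusted p = 0.108). Finishing replicate 5, also the steer lowest in HLF, held the lowest value of both POR and NR1I3, and the next lowest were 9.82 and 8.41. The other 3 genes are named after their values were seen. ALAS1, the first enzyme of heme synthesis, PPARA, a fatty acid receptor, and PDXK, pyridoxal kinase, had differences of -0.039, 0.029 and 0.27.

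Among 19 measured kinases, ubiquitin ligases and cofactors of the clock, out of 21 listed, 1 fell and 0 rose, with 2 lower and 2 higher at an unadjusted p under 0.05 and a median of -0.027. These counts are near the shares over all probe sets, 4.3% lower and 2.34% higher adjusted, and 10.8% in each direction unadjusted. The gene that fell was PRKAA1, a catalytic subunit of AMPK, the energy sensor that marks CRY1 for degradation in mouse. It ran from 7.62 to 7.89 in growing and from 7.26 to 7.61 in finishing steers, with no overlap, which holds for 0.904% of probe sets. PRKAA1 fell by 0.37 ± 0.06 (SE, n = 8 per phase; adjusted p = 0.0041 by limma), and it passed in all 16 fits that left out 1 array.

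Of 13 genes with a daily rhythm in mouse liver outside the loop, 2 rose and 1 fell, with a median of -0.033. Over all probe sets 2.34% rose and 4.3% fell. By limma at an unadjusted p under 0.05, 4 of the 13 were higher and 1 lower, against 10.8% of probe sets in each direction. WEE1, a mitosis-inhibiting kinase that CLOCK and ARNTL activate in mouse, ran from 7.76 to 8.62 (median 8.25) in growing and from 6.72 to 8.11 (median 7.56) in finishing steers, and fell by 0.81 ± 0.19 (SE; adjusted p = 0.0161 by limma). GYS2, liver glycogen synthase, rose by 0.40 ± 0.10 (SE; adjusted p = 0.0208 by limma), with 7 finishing steers above all growing steers. LPIN1, a phosphatidate phosphatase, rose by 1.70 ± 0.44 (SE; adjusted p = 0.0261 by limma). Its finishing values split, with 8.03 to 9.28 in replicates 1 to 3 and 10.7 to 11.2 in replicates 4 to 8, against 7.68 to 9.16 in growing steers. When finishing replicates 5 and 6 were left out, neither the GYS2 difference nor the LPIN1 difference passed limma (adjusted p = 0.0592 and 0.108), and LPIN1 passed in 10 of 16 fits that left out 1 array (lost without growing replicate 1 or 8 or finishing replicate 5, 6, 7 or 8).

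Body temperature and glucocorticoids, which set the liver clock in rodents, have no measured values here, and genes that respond to them were listed instead. The array shares for these counts were 2.34% higher and 4.3% lower, and 10.8% in each direction at an unadjusted p under 0.05. By limma unadjusted, 4 of 6 temperature genes were higher and 1 lower, and 3 of 8 glucocorticoid genes were higher and 0 lower. The lists were chosen with earlier results of these data known. Of 6 temperature genes measured out of 8 listed, HSPB1, a small heat shock protein, fell by 0.39 ± 0.08 (SE; adjusted p = 0.00869 by limma), and HSPA8, a constitutive chaperone, rose by 0.37 ± 0.10 (SE; adjusted p = 0.0375 by limma). HSPA8 passed in 5 of 16 fits that left out 1 array (lost without growing replicate 1, 2, 5, 6, 7 or 8 or finishing replicate 2, 5, 6, 7 or 8). HSPB1 and HSPA8 thus moved in opposite directions, and the list median of 0.20 is not a measure of body temperature. Of 8 glucocorticoid-induced genes, PER1 among them, 1 rose and 0 fell. The gene that rose was TAT, tyrosine aminotransferase, by 0.39 ± 0.11 (SE, limma adjusted p = 0.0474). In this list 8 of 8 differences lay above 0, against 9562 of 18010 for all named genes, with a median of 0.26. TAT passed in 3 of 16 fits that left out 1 array, those without growing replicates 4 or 5 or finishing replicate 3. These values moved beside those of HLF, and their part in its difference was not tested.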

How the data were processed

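The deposited table holds log2 signals per probe set, as judged from their range of 1.48 to 14.1; the authors' summarisation and normalisation were not given in the sources used here. GCOS 1.2 and Partek 6.4 appear in the submitters' processing notes with no role. Values were used as deposited (array medians 5.57 to 5.64). Of 26773 probe sets 18457 carried 1 symbol, 688 several and 7628 none here. The labels' protocol describes cRNA primed with oligo(dT), while the annotation looks like one for a whole-transcript gene array; this mismatch was not resolved, and all gene names depend on it. Hepatocyte markers, so named, had mean signals of 12.85 to 12.99, and 17996 of the single-symbol probe sets matched RefSeq genes (ARS-UCD2.0) by identifier. No detection calls or batches were used, and the number of arrays limits the precision.

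Finishing minus growing was fitted with limma 3.58.1 in R 4.3.3 (lmFit, eBayes, 2-sided) over all probe sets. The fit was tested on 5 simulated data sets with the means and spreads of these probe sets. It recovered a median of 67.2%, 94.0% and 100% of log2 changes of 0.5, 1 and 2. Smaller changes were not simulated, so a gene that did not pass may still differ. Steers are separate animals, so p-values measure the spread between animals. Exact tests enumerated 12870 arrangements, or 40320 orderings within a phase, and other permutations drew 100000 resamples (Python 3.11.15, SciPy 1.17.1). Members, lists and pairs were chosen with earlier results of these data known. Named were all members and measured core clock genes, up to 4 genes past the threshold per other list (the 2 with the smallest p where none passed; cell type lists are mostly given as counts; others are marked as named after their values were seen), and the 3 genes most like HLF.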

Additional observations from a re-analysis of the deposited data

Results flagged for a closer look

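Among 18 clock genes screened in 2 phases, 3 of 36 groups of 8 steers held a value far from the others, with a gap to its nearest neighbour above 0.526 of the range, and chance gives this in a share of about 0.05 of groups. HLF in growing replicate 4 was 8.78, where the next lowest growing steer had 9.40. HLF in finishing replicate 5 was 7.70, and the next lowest finishing steer had 8.62. Both lie on the low side. Each of these arrays also had the lowest median correlation with its own phase (0.984 and 0.978). NFIL3, looked up after these values were seen, was highest of its phase in both steers (7.65 and 8.17). What sets these arrays apart was not tested. BHLHE41, a repressor of CLOCK targets, was 7.01 in growing replicate 5, above 6.37 in the next steer, and that steer also had the highest DBP of all 16 (9.60).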

How the results depend on the processing

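The count of lower members, 1 on all arrays, was 0 with a threshold of 0.01, with a replicate block and without finishing replicates 5 and 6, and ranged from 0 to 1 when 1 array was left out. It was the same under quantile normalisation, median centring, a variance trend, array weights and the probe set filters. The probe set choices also gave 1, but only PER2 among the measured members had 2 probe sets, so they could hardly change it. The exact test gave 1 as well, but unadjusted, where limma unadjusted gave 2. The count of higher members was 0 under each. Deviations of same-numbered steers showed little correlation over the probe sets (r from -0.15 to 0.041). The labels state no pairing by number, and with 1 pair of arrays per number this check cannot exclude a shared batch or order. With the replicate block the HLF difference had a limma adjusted p of 0.0534, the WEE1 difference 0.0570, the GYS2 difference 0.0944 and the HSPA8 difference 0.125, and 268 probe sets were higher and 642 lower against 626 and 1151. Without finishing replicates 5 and 6 these counts were 288 and 654. With array median centring the TAT difference had 0.0542. The 3 pairs past the threshold became 0 within growing steers alone, within finishing steers alone (8 steers each) and without the 2 arrays farthest from the median of the first gene, and 0 to 4 with 1 array left out. The causes were not tested. No detection calls were at hand, so signal over background was not assessed. Leaving out growing replicate 4 with finishing replicate 5 was added after seeing the data.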

Other observations

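NOCT, a phosphatase with a strong daily rhythm in mouse liver, was named after its values were seen. It ran from 5.28 to 5.98 (median 5.78) in growing and from 5.82 to 7.35 (median 6.03) in finishing steers, and 4 finishing steers lay above every growing steer. The highest values were those of finishing replicates 5 and 6 (7.35 and 7.15), the arrays that correlated least with their own phase. The next was 6.41 in finishing replicate 8. The difference was 0.66 ± 0.21 (SE, n = 8 per phase; adjusted p = 0.0688 by limma).

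Among the growing steers, the 4 with the highest DBP and PER3, replicates 5 to 8, had CRY1 signals of 6.29, 6.60, 6.64 and 6.31, whereas replicates 1 to 3 had 7.03, 7.30 and 6.84. Replicate 4 went against this pattern, with the lowest DBP of the phase (7.99) and a CRY1 signal of 6.48. ARNTL in the same 3 steers was 7.20, 7.66 and 7.44, above the other 5 growing steers (6.35 to 7.11). These values were picked out after the pattern was seen and were not tested.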
